A study of Homo sapiens with 5 samples.

Results

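The intermediate filament and lamin genes described here are 5 keratins (KRT8, KRT18, KRT17, KRT19 and KRT10), VIM (vimentin), NES (nestin) and the 3 nuclear lamin genes LMNA, LMNB1 and LMNB2. They were taken by name from the abundance table of the series, and all 10 were among its 10504 genes. The family was chosen by its footprint, RNA and TE values in both groups (TE, translational efficiency, is the footprint value divided by the RNA value). Its changes after IRE1α depletion are therefore a description, and a test printed beside them is no independent support. RNA-seq and ribosome profiling (Ribo-seq, which sequences the mRNA pieces covered by ribosomes, called footprints) were done in HEK293A, a flat-growing subclone of the HEK293 line, which came from embryonic human kidney. The cells carried a control siRNA (siCon, 2 samples) or an siRNA against IRE1α (siIRE1a, 2 samples), the endoplasmic reticulum stress sensor encoded by ERN1. Fetal bovine serum followed a period of starvation in every group, and no group without serum is described. 1 further sample was a multiplexed Ribo-seq library of both groups. What the groups stand for is limited by the use of 1 cell line and of an siRNA knockdown whose extent in protein is unknown here. In the sample descriptions siCon goes with RNA-seq and siIRE1a with Ribo-seq, whereas the tables hold both assays for both groups, so the siRNA label gave the group and the column name gave the assay.

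Each gene had 1 footprint value and 1 RNA value in a group, so no spread between replicates stands beside a level. Its unit is not stated. Across 10418 genes with a coding length, Spearman's rho between the siCon value and that length was −0.51 for footprints and −0.245 for RNA. Levels of different genes are set side by side below on the assumption that the scale is per length, which is not stated in the sources used here. Of the 4 titled libraries, those of siCon had 28769136 and 31876615 clusters. Those of siIRE1a had more, 49112701 and 34172898, and the reads behind a gene's value are unknown. RNA of the siRNA target ERN1 was 0.121 in siCon and 0.0736 in siIRE1a, 1.65-fold lower, and its footprints were 0.402 and 0.275. These levels were low, beside siCon medians of 0.412 for RNA and 1.84 for footprints over all genes. Of the neurofilament genes often found in HEK293 cells, NEFL was in the table, and NEFM and INA were not. Of 3 markers of stratified epithelium it held KRT14, described below. None of the 4 blood, 2 liver, 2 muscle and 1 astrocyte markers was in the table. Of 3 fibroblast markers it held COL1A1, at a footprint abundance of 1.03 in siCon and 1.04 in siIRE1a.

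Intermediate filaments are rope-like polymers that give cells and nuclei mechanical strength. Keratins assemble as pairs of 1 type I and 1 type II chain, and a chain without its partner is usually degraded, while vimentin can assemble alone. The lamins form a meshwork under the inner nuclear membrane that holds chromatin and membrane proteins in place. KRT8 is the type II keratin of simple epithelia, KRT18 and KRT19 are its type I partners, KRT17 is a type I keratin of basal and appendage epithelia that is induced in wounded skin, and KRT10 belongs to differentiating epidermis.

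VIM had the most footprints of these genes, 83.8 in siCon and 69.5 in siIRE1a. In siCon that was more than 98.3% of all genes. KRT8 followed with 38.7 and 39.2, then KRT18 with 24.9 and 21.5. LMNB1, a B-type lamin, had 19.1 and 17.2. Those 4 genes lay above 93.2% of all genes or more in siCon. KRT17 had 9.57 in siCon and 20.8 in siIRE1a, which put it below LMNB1 in siCon and above it in siIRE1a. No other pair of the 10 changed places. LMNA, which encodes lamins A and C by alternative splicing, had 8.07 and 7.40, and the second B-type lamin gene LMNB2 had 6.47 and 5.52. KRT19 had 3.81 and 3.52. NES, a filament protein of progenitor cells, and KRT10 were low, at 0.574 and 0.405 for NES and 0.288 and 0.328 for KRT10. The median of all genes in siCon was 1.84, so 8 of the 10 were above it. Without replicates, no statement can be made on which neighbours in this order differ beyond error.

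**Figure D1:**
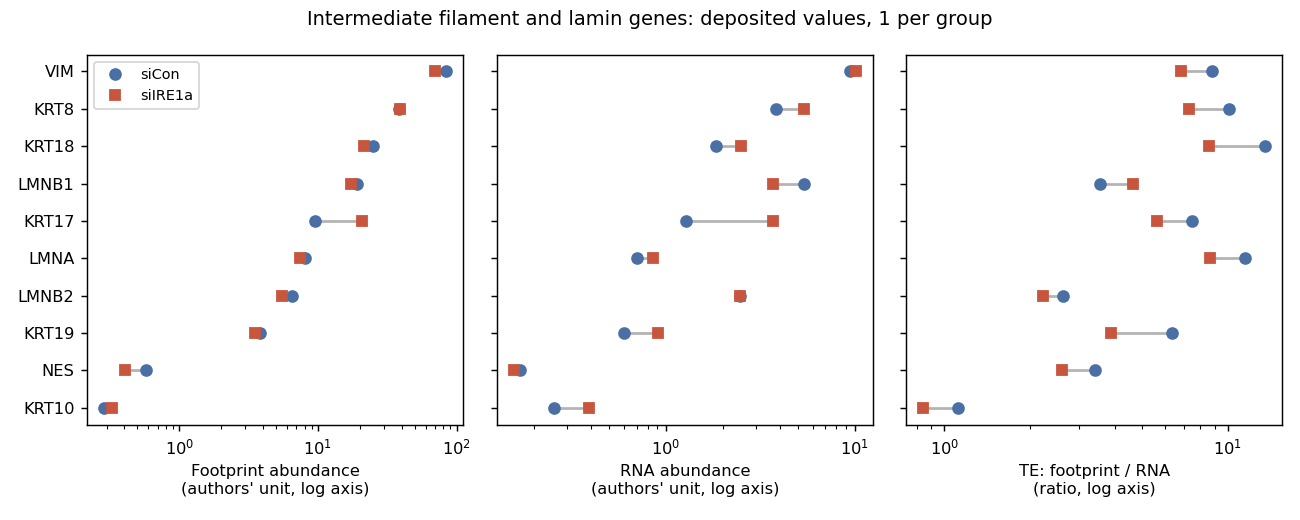
Deposited footprint abundance, RNA abundance and their ratio (TE) for the 10 genes, on log axes, with circles for siCon and squares for siIRE1a and 1 value per group and assay. KRT17 stands at 9.57 and 20.8 for footprints and at 1.28 and 3.69 for RNA, while the ratio of every gene but LMNB1 lies to the left in siIRE1a.

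RNA followed a different order. VIM again led with 9.49 in siCon and 10.1 in siIRE1a, but LMNB1 came next in siCon with 5.38 and stood below KRT8 in siIRE1a with 3.69. KRT8 had 3.82 and 5.36. LMNB2 had 2.47 and 2.48, KRT18 1.83 and 2.49, and KRT17 1.28 and 3.69. LMNA had 0.699 and 0.853, KRT19 0.598 and 0.911, KRT10 0.257 and 0.389, and NES 0.168 and 0.156. A mean RNA abundance of at least 1 was reached by 6 of the 10 genes (VIM, KRT8, LMNB1, KRT17, LMNB2 and KRT18), and a mean footprint abundance of at least 1 by 8 (all but NES and KRT10).

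TE differed widely within the family. In siCon cells KRT18 had the highest TE, 13.6, above 91.6% of all genes. LMNA had 11.6, KRT8 10.1, VIM 8.83, KRT17 7.46 and KRT19 6.38. These lay above the median TE of all genes, 4.70. The B-type lamins lay below it, with LMNB1 at 3.54 and LMNB2 at 2.62, as did NES at 3.41 and KRT10 at 1.12. Only 3.40% of genes had a lower TE than KRT10. In siCon the lamin genes therefore spanned a wide range, from 2.62 for LMNB2 to 11.6 for LMNA. In siIRE1a cells the same ratio was 8.62 for KRT18, 8.68 for LMNA, 7.31 for KRT8, 6.86 for VIM, 5.62 for KRT17, 4.65 for LMNB1, 3.86 for KRT19, 2.60 for NES, 2.22 for LMNB2 and 0.843 for KRT10. KRT19 thus went from above to below the median of all genes, which was 4.62 in siIRE1a, and LMNB1 came to lie just above it.

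How far the keratin values can be told apart from those of their copies depends on sequence. This check was added after the values were seen. Keratin genes have many pseudogenes, and reads that fit several places cannot be assigned to 1 of them by sequence alone. In GENCODE release 29, 77.0% of the 28-base windows of the KRT8 coding sequence also occur in a transcript of another gene, and 77.1% of those of KRT18. The leading partners were processed pseudogenes such as KRT8P3 and KRT18P11. For KRT17 the share was 46.7%, led by KRT17P1, and for KRT19 18.5%. VIM had 0.946%, KRT10 0.463%, LMNB1 0.115% and LMNB2 0.109%, and LMNA and NES had 0. Levels of KRT8, KRT18 and KRT17 are therefore uncertain, since the submitters' handling of such reads is not given in the sources used here. The part of that handling in the differences below was not tested. A window of 28 bases is close to the length of a footprint, and sharing at the length of the RNA reads was not measured.

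KRT14, a type I keratin of basal epidermis and a close relative of KRT17, was singled out after its values were seen. The longest stretch of coding sequence that both share is 59 bases, coding bases 760 to 818 of KRT17 and 853 to 911 of KRT14, longer than a footprint. It is shown because a footprint from inside it fits both genes. In KRT17 it lies at chr17:41621609-41621667 (GRCh38, minus strand, GENCODE transcript).
KRT17 and KRT14: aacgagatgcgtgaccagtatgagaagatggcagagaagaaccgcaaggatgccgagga
Of the KRT14 coding windows of 28 bases, 7.90% occur in KRT17. KRT14 footprints were 0.494 in siCon and 1.16 in siIRE1a, which was 5.16% and 5.59% of the KRT17 values. Its RNA was 0.116 and 0.276, which was 9.03% and 7.48% of the KRT17 values. The share of KRT14 reads that come from the common stretches was not tested.

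The first comparison was of the RNA of these genes between siIRE1a and siCon. All 5 keratins had higher RNA in siIRE1a, by 2.88-fold for KRT17, 1.52-fold for both KRT19 and KRT10, 1.40-fold for KRT8 and 1.36-fold for KRT18. LMNA was 1.22-fold higher and VIM 1.07-fold, LMNB2 was level (1.01-fold higher), NES was 1.08-fold lower and LMNB1 was 1.46-fold lower. Of all genes, 48.8% had higher RNA. The median log2 change of the 10 genes was 0.37, against −0.01 for all genes. A difference of at least 1.5-fold upwards was found in 3 of the 10, KRT17, KRT19 and KRT10, and in 3.86% of all genes. No member was at least 1.5-fold lower, against 6.7% of all genes. Of the 3 genes, only KRT17 had a mean RNA abundance of at least 1. Among the 2159 genes at that level or above, of which 2.32% were at least 1.5-fold higher and 7.23% lower, KRT17 ranked 3 by its increase. A pseudocount of 0.1 left KRT17 as the only member past 1.5-fold. In bulk samples more cells with a transcript and more RNA per cell cannot be told apart.

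**Figure D2:**
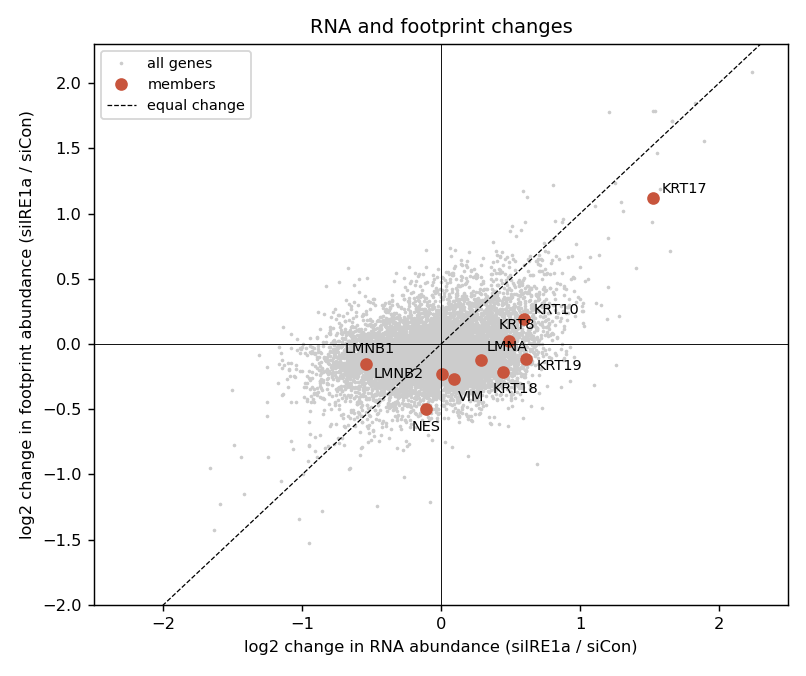
Log2 change in RNA (horizontal) and in footprints (vertical), siIRE1a over siCon, with all genes in grey, the 10 members in red and a dashed line where both changes are equal. KRT17 stands at 1.52 and 1.12, and 9 members lie below the dashed line, LMNB1 being the one above it.

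Footprints changed less than RNA in 7 of the 10 genes and more in VIM, NES and LMNB2. The share of all genes in which footprints changed less is not given here. Over all genes, changes of at least 1.5-fold were rarer in footprints than in RNA, at 0.847% against 3.86% upwards and 0.904% against 6.7% downwards. KRT17 was 2.17-fold higher in siIRE1a, and KRT10 was 1.14-fold and KRT8 1.01-fold higher. The other 7 were lower, by 1.42-fold for NES, 1.21-fold for VIM, 1.17-fold for LMNB2, 1.16-fold for KRT18, 1.11-fold for LMNB1, 1.09-fold for LMNA and 1.08-fold for KRT19. Footprints were lower in 67.9% of all genes. KRT17 was the only member at least 1.5-fold higher, as 0.847% of all genes were, and none was at least 1.5-fold lower, against 0.904% of all genes. Among the 7033 genes with a mean of at least 1 these shares were 0.384% and 0.867%, and KRT17 ranked 10 by its increase. The median log2 footprint change of the 10 was −0.14, against −0.08 for all genes. NES stood at a log2 change of −0.50, with only 1.73% of genes lower, but its abundance was low and its change was −0.16 with a pseudocount of 1. The log2 RNA change was above the log2 footprint change in 9 of the 10 genes, a count whose share over all genes is not given here either.

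KRT17 was the member that changed most in both assays, and its RNA value changed more than its footprint value (log2 1.52 and 1.12). The 3 genes whose pair of log2 changes lay nearest to that of KRT17, among 2123 genes with a mean of at least 1 in both assays, were PNP (purine nucleoside phosphorylase), FN1 (fibronectin) and IER3 (an early response gene). Likeness here means distance over 2 changes from 4 values. PNP lay at a distance of 0.089 log2 units, with RNA of 1.34 and 3.998 and footprints of 15.5 and 35.3. FN1 lay much farther off, at 0.83, with RNA of 0.854 and 1.65 and footprints of 5.58 and 7.96. IER3 lay at 0.86.

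The keratin pairing gave a further view of these values, chosen after they were seen. The table held 5 type I keratins (KRT18, KRT17, KRT19, KRT10 and KRT14) and 2 type II keratins (KRT8 and KRT80). In siCon the summed footprints were 39.1 for type I and 39.2 for type II, a ratio of 0.997. In siIRE1a they were 47.3 and 39.8, a ratio of 1.19. The summed RNA was 4.08 and 3.91 in siCon (ratio 1.04) and 7.76 and 5.52 in siIRE1a (ratio 1.41). The share of KRT17 in type I footprints went from 24.5% to 43.9%, and that of KRT18 from 63.7% to 45.5%. Without KRT17 and KRT14 the type I footprint sum was 28.997 in siCon and 25.3 in siIRE1a. The RNA sum without them went the other way, from 2.69 in siCon to 3.79 in siIRE1a. No error can be put on these ratios, and the window sharing of KRT8, KRT18 and KRT17 given above applies to them.

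**Figure D3:**
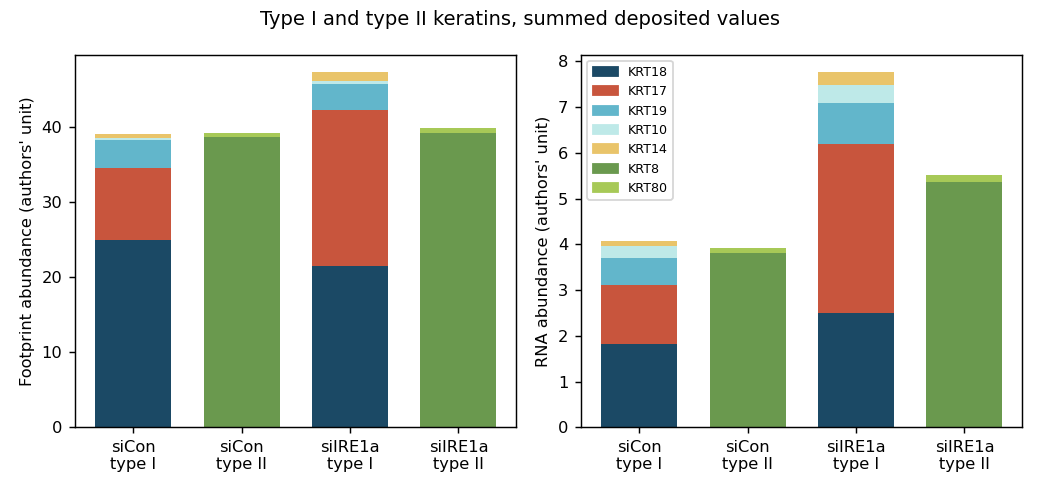
Stacked deposited values of the type I and type II keratins in the table, for footprints (left) and RNA (right), in the authors' unit and with bars starting at 0. Type I and type II footprints stand at 39.1 and 39.2 in siCon and at 47.3 and 39.8 in siIRE1a, and KRT17 makes up 24.5% and 43.9% of the type I bars.

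The second comparison was of TE, for which the authors deposited a test. In the authors' deposited table TE was lower in siIRE1a for 9 of the 10 genes and higher for LMNB1. TE was lower in 54.2% of all genes there. At an adjusted p under 0.05, TE fell in 4 of the 9 members with an adjusted p and rose in 1, where 4.62% of all tested genes fell and 5.9% rose, 10.5% in all. These calls belong to the contrast with which the genes were chosen, and nothing is read from their share. Of the members, the authors' deposited table gave KRT19 the largest fall, with a log2 value of −0.72 (adjusted p = 0.00888) and a back-calculated standard error of 0.200. KRT18 fell by 0.65 on the log2 scale (adjusted p = 0.00389, standard error 0.167) in the authors' deposited table. KRT8 fell by 0.47 (adjusted p = 0.0131, standard error 0.136) in the authors' deposited table, and VIM by 0.36 (adjusted p = 0.0415, standard error 0.124). These falls came with RNA that was higher and footprints that were level or lower. For KRT18, for example, RNA went from 1.83 to 2.49 while footprints went from 24.9 to 21.5.

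LMNB1 was the one member whose TE rose. The authors' deposited table gave it 0.41 on the log2 scale (adjusted p = 0.0398, standard error 0.143). Its log2 change was −0.54 in RNA (5.38 and 3.69) and −0.15 in footprints (19.1 and 17.2). LMNB2, whose product is also a B-type lamin, had level RNA and stood at −0.23 in TE (adjusted p = 0.269) in the authors' deposited table. The footprint ratio of LMNB1 to LMNB2 was 2.95 in siCon and 3.11 in siIRE1a, while the RNA ratio was 2.18 and 1.49. The TE of KRT17 stood at log2 −0.39 and missed the threshold narrowly (adjusted p = 0.0501, standard error 0.140) in the authors' deposited table. LMNA stood at −0.42 (adjusted p = 0.126) and NES at −0.40 (adjusted p = 0.276) in the authors' deposited table. KRT10 stood at −0.42 with no adjusted p in the authors' deposited table.

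**Figure D4:**
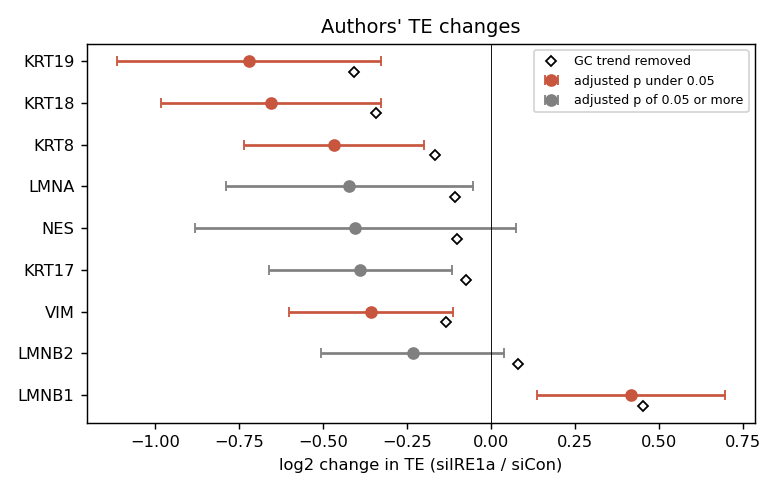
Log2 change in TE (siIRE1a over siCon) of the 9 members with an adjusted p in the authors' deposited table, with 95% intervals from back-calculated standard errors that are not adjusted for the number of genes, in red where the adjusted p is under 0.05. Open diamonds give the value after the trend on transcript GC content over all genes was removed, which lies nearer to 0 for every gene except LMNB1.

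Base composition moved with these changes. Across 10418 genes the Spearman correlation with transcript GC content was 0.63 for the RNA change, −0.04 for the footprint change and −0.67 for the TE change. The members are GC-rich, with a median transcript GC content of 59.9% against 47.9% for all genes. LMNA, LMNB2, KRT17, KRT19 and KRT18 lay between 60.5% and 61.8%, NES and KRT8 at 59.3% and 59.1%, VIM at 54.1% and KRT10 at 52.0%. LMNB1 alone, at 47.7%, lay below the median of all genes. The middle 90 coding bases of LMNB1, LMNB2, KRT17 and KRT18 are shown as an illustration of base composition, with G and C in capitals. This window was picked after another: the first 90 coding bases were looked at before, were 80% G or C in LMNB1, 84.4% in LMNB2, 70% in KRT17 and 67.8% in KRT18, and did not show the contrast seen over the whole transcripts. The measurement is the content of the whole transcript, not that of either window. KRT17 is at chr17:41621734-41622423 and LMNB2 at chr19:2434794-2434883 on the minus strand, and KRT18 at chr12:52950850-52951513 and LMNB1 at chr5:126811794-126811883 on the plus strand (GRCh38, GENCODE transcripts, with an intron inside the KRT17 and KRT18 spans).
LMNB1: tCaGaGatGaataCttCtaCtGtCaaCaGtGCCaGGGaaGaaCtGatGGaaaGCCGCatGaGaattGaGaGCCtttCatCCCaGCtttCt
LMNB2: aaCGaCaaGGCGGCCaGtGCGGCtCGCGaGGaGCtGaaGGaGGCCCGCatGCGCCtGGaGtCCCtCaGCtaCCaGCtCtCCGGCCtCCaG
KRT17: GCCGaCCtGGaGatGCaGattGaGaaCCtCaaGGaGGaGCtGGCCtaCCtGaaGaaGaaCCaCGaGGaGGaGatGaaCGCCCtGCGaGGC
KRT18: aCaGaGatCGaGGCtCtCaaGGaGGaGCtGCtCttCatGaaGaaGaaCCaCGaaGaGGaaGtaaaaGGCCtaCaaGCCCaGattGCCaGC
In these windows 45.6% of bases were G or C in LMNB1, 68.9% in LMNB2, 58.9% in KRT17 and 51.1% in KRT18. Over the whole coding sequence the values were 50.7%, 66.4%, 61.4% and 58.2%, and at the last codon position 54.5%, 89.4%, 82.0% and 75.6%.

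**Figure D5:**
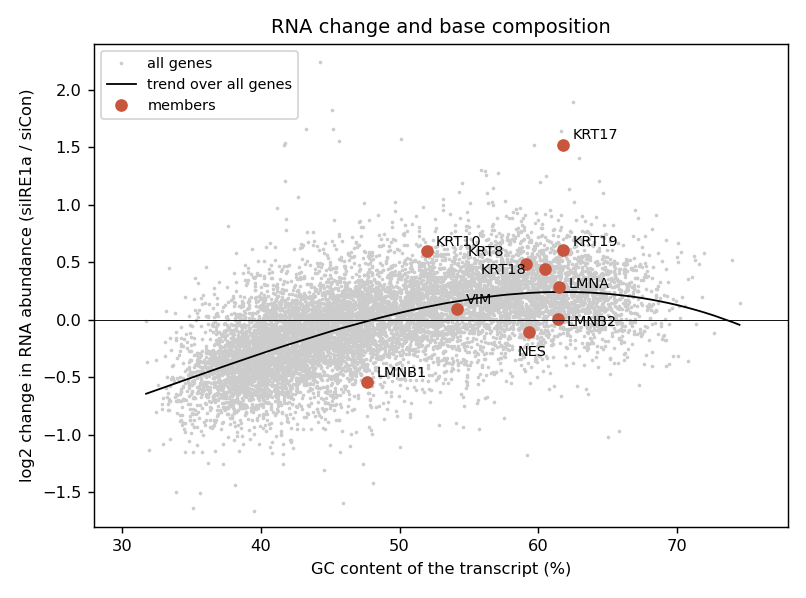
Transcript GC content in percent (horizontal) against the log2 RNA change, siIRE1a over siCon (vertical), with all genes in grey, the fitted trend as a line and the 10 members in red. KRT17 lies 1.28 above the line and LMNB1 0.53 below it, whereas LMNA and VIM lie within 0.07 of it.

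With the GC trend over all genes removed, the log2 RNA change of KRT17 was 1.28, again rank 3 among genes with a mean of at least 1. That of LMNB1 was −0.53. KRT10 was at 0.49, KRT19 at 0.37, KRT8 at 0.26, KRT18 at 0.20 and LMNA at 0.05. VIM was at −0.07, LMNB2 at −0.23 and NES at −0.34. All 5 keratins remained above 0, and the median of the 10 went from 0.37 to 0.13. The fit centres the mean of all genes at 0, and the share of all genes above 0 is not given here. With the same trend removed from the TE changes of the authors' deposited table, no member was called. The TE changes were then −0.41 for KRT19 (adjusted p = 0.450), −0.34 for KRT18 (adjusted p = 0.438), −0.17 for KRT8 (adjusted p = 0.758), −0.14 for VIM (adjusted p = 0.808) and −0.08 for KRT17 (adjusted p = 0.934), each from the authors' deposited table with back-calculated errors. LMNB1 was at 0.45 (adjusted p = 0.0864), slightly farther from 0 than before. LMNB1 was called with coding GC content in place of transcript GC content (adjusted p = 0.0418), a setting chosen after seeing the data. LMNB2 turned to 0.08 (adjusted p = 0.929). The share of all tested genes still called with the GC trend removed is not given here. Nothing is therefore read from the lost calls, here or in the gene lists below, or from the call of LMNB1 with coding GC content.

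The proteins that link keratins to cell junctions include plakins and desmosome components. Of the 13 measured genes of that list, 11 had an adjusted p in the authors' deposited table, of which TE fell in 2 and rose in 1, beside 4.62% and 5.9% of all tested genes. The median log2 RNA change was 0.13, with 10 above 0 as were 48.8% of all genes, and the median footprint change 0.03. JUP (plakoglobin) had RNA of 1.26 and 1.99 and footprints of 7.84 and 8.19, and its TE fell by 0.59 on the log2 scale (adjusted p = 0.00283) in the authors' deposited table. PLEC (plectin), which ties intermediate filaments to other cytoskeletal systems, had RNA of 0.163 and 0.316 and footprints of 0.519 and 0.736, and its TE fell by 0.43 (adjusted p = 0.0378) in the authors' deposited table. The desmosomal cadherin DSC2 rose by 0.61 in TE (adjusted p = 0.0242) in the authors' deposited table, with RNA of 0.176 and 0.116. Footprints of its relative DSC3 went from 2.60 to 4.05, the only ones of the list at least 1.5-fold apart. With the GC trend removed none of these 3 calls remained, with TE at −0.28 for JUP (adjusted p = 0.514), −0.17 for PLEC (adjusted p = 0.802) and 0.31 for DSC2 (adjusted p = 0.623), from the authors' deposited table with back-calculated errors.

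Other filament genes were few. Beside KRT14, the type II keratin KRT80 had RNA of 0.0919 and 0.158 and footprints of 0.529 and 0.625. The neurofilament gene NEFL had footprints of 5.98 and 5.79 and RNA of 0.809 and 0.836. SYNM (synemin) and BFSP1 (a lens filament gene) were within 1.11-fold in both assays. Only 2 of the 5, NEFL and SYNM, had an adjusted p in the authors' deposited table. Neither was called in TE, beside 10.5% of all tested genes.

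The list set up for lamin partners in the nuclear envelope, which also holds a phosphatase subunit, had 1 TE call, in that subunit. Of 20 measured genes, all with an adjusted p in the authors' deposited table, TE rose in 1 and fell in 0, beside 5.9% and 4.62% of all tested genes. It was PPP1CB, a catalytic subunit of a protein phosphatase, at log2 0.77 (adjusted p = 2.3e-06) in the authors' deposited table, with RNA of 3.17 and 1.82. The median log2 RNA change was 0.07 and the median footprint change −0.04. Among named lamin binders, LBR (lamin B receptor) had RNA of 1.70 and 1.24 and footprints of 10.8 and 9.77, and its TE stood at log2 0.33 (adjusted p = 0.0911) in the authors' deposited table. EMD (emerin) had RNA of 2.16 and 2.90 and footprints of 12.3 and 12.8. Of SYNE1 (a nesprin that links the nucleus to the cytoskeleton), RNA was 0.0664 and 0.105.

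The precursor of lamin A (prelamin A), the B-type lamins and other proteins with the same C-terminal motif are farnesylated, clipped and methylated. The list for this path held 6 genes, which include FNTA and FNTB, subunits of the farnesyl transferase, and PGGT1B, a subunit of the related geranylgeranyl transferase. Of these 6, beside 5.9% of all tested genes, TE rose in ZMPSTE24, the protease that matures prelamin A, at log2 0.76 (adjusted p = 4.2e-04) in the authors' deposited table. RNA of ZMPSTE24 was 1.73 and 0.966, and footprints were 8.89 and 8.26. All 6 had lower footprints in siIRE1a, as did 67.9% of all genes, with a median log2 change of −0.14 against −0.08 for all genes. PGGT1B had RNA of 0.239 and 0.152. The 14-3-3 proteins, which bind phosphorylated keratins and vimentin, had 7 measured genes, of which 6 had an adjusted p and, beside 5.9% of all tested genes, YWHAE rose in TE (log2 0.49, adjusted p = 0.0146) in the authors' deposited table. Its RNA was 18.6 and 11.8 and its footprints were 83.9 and 73.7. The epithelial member SFN had RNA of 0.188 and 0.285. With the GC trend removed, TE of YWHAE was 0.44 (adjusted p = 0.115), near its value before, while PPP1CB was at 0.32 (adjusted p = 0.278) and ZMPSTE24 at 0.42 (adjusted p = 0.255). None of the 3 was then called, from the authors' deposited table with back-calculated errors. Transcript GC content was 35.5% for PPP1CB, 38.0% for ZMPSTE24 and 45.1% for YWHAE.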

How the data were processed

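RNA-seq and Ribo-seq values of siCon and siIRE1a HEK293A cells were used. The deposited abundance table holds values of unstated unit for footprints and RNA, 1 value per group and assay, and the deposited TE columns are the ratio of footprint to RNA. The deposited comparison table gives, per gene, the authors' log2 TE change with its adjusted p-value, and its name refers to DESeq2. Its model was not stated, nor whether replicates were separate cultures, so its p-values may measure technical spread only. Deposited cluster counts were read from a run summary. The submitters' processing notes name Bowtie 1.1.2 and hg19. Of 10522 entries, 9 symbols with 2 entries each were left out. Changes are log2 of siIRE1a over siCon with no pseudocount, and no test was possible on 1 value per group. A test across replicates was foreseen only for counts per replicate, which were not analysed here. Standard errors were back-calculated from the authors' adjusted p, assuming Benjamini-Hochberg adjustment and a two-sided normal test, and are upper limits where adjusted values are tied. For back-calculated p of 0.5 or more, the median error of 1 of 20 abundance bins was used. GC content and 28-base windows came from GENCODE release 29 (GRCh38, 1 principal coding transcript a gene), matched for 10418 genes (99.2%), 254 through an older symbol. A trend of degree 3 on GC content was fitted over all genes. The back-calculation and the trend removal were run on simulated data made under the same assumptions. That run cannot show whether the authors' p-values meet those assumptions. Named genes were all members, list genes called in TE (at most 4 a list), list genes at least 1.5-fold apart with a mean of at least 1, and the 3 genes nearest to KRT17, and a few others were named after their values were seen. Members and lists were chosen with earlier results of these data known. Python 3.11.15, numpy 2.4.6, pandas 2.3.3 and scipy 1.17.1 were used. Part of the marker check of the cell line is not reported here.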

Additional observations from a re-analysis of the deposited data

How the results depend on the processing

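No paired analysis was possible because the tables hold 1 value per group, and for the same reason no replicate could be left out in turn. With no replicate spread, a change was counted as moved where it differed by more than 1.5 times or turned sign. The median RNA change of the members (0.37) was 0.135 and 0.0506 with pseudocounts of 1 and 5, and 0.13 and 0.18 with the trend on transcript and on coding GC content removed, the latter chosen after seeing the data. The median footprint change (−0.14) was −0.0622 with a pseudocount of 5, −0.0563 with median centring and −0.0488 with quantile normalization. The count of members at least 1.5-fold higher in RNA (3) was 1 with pseudocounts of 0.1 and 1, with a 2-fold threshold and among members whose mean reached 1, and 0 with a pseudocount of 5. The counts of TE calls (4 lower, 1 higher) were 2 and 0 at an adjusted p under 0.01, 0 and 0 with the transcript GC trend removed, and 0 and 1 with the coding GC trend removed. LMNB2 turned from −0.23 to 0.0796 and 0.0102 in TE under those trends. Median centring of TE left 3 lower calls, without VIM (adjusted p = 0.0758). The shares of all tested genes called under these settings are not given here, and nothing is read from such counts. Of 174 values of single genes under these alternatives, 54 with no adjusted p moved, 10 lost their call and 2 reversed. TE values with an adjusted p were judged by direction and side of the threshold alone, so that KRT17, NES and LMNA, not called at either value, came much nearer to 0 with the GC trends removed without being counted. The depth behind each value is unknown, which limits KRT10 and NES most.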
